A study of Mus musculus with 8 samples.

Results

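The IL-1 and IL-18 cytokine genes of the mouse and the genes of their soluble antagonists were followed in cultured CD8+ dendritic cells exposed to interferon gamma (IFN-γ). The set holds 5 genes, Il1a, Il1b, Il1rn, Il18 and Il18bp, chosen by name as every probe set that the platform annotation assigns to one of them. Each has 1 probe set (94755_at, 103486_at, 93871_at, 102802_at and 92689_at in that order), so they are 5 of the 12422 probe sets tested. The cells were purified from the spleens of female DBA/2J mice aged 60 days, which had received Flt3-L, a growth factor that expands dendritic cells, at 10 µg for 9 days. The 4 groups were cells kept 16 hours with mouse IFN-γ at 200 U/ml, 16 hours in medium alone, 4 hours with the same dose, and 4 hours in medium alone, with 2 Affymetrix MG-U74Av2 arrays in each. All groups therefore share the Flt3-L treatment, the purification and a period of culture, and no freshly isolated cells were measured here. Whether the 2 arrays of a group stand for different animals or cultures is not stated in the labels. Each p-value therefore covers no more than array-to-array spread, possibly of technical origin.

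IL-1α and IL-1β, encoded by Il1a and Il1b, are inflammatory cytokines that signal through the same receptor and the adaptor MyD88 to NF-κB. Il1rn encodes the IL-1 receptor antagonist, which occupies that receptor without signalling. IL-18, encoded by Il18, is a relative of IL-1β that, like it, is made as a precursor cut by caspase-1, and it drives IFN-γ production in T and NK cells. Il18bp encodes IL-18 binding protein, a secreted decoy that captures IL-18 and is known in human cells as a gene induced by IFN-γ.

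On the arrays, IFN-γ went with a higher signal of the IL-18 antagonist gene, and the IL-1 antagonist gene fell with time in culture in both conditions. Il18bp was 2.01-fold higher with IFN-γ than in medium at 16 hours and passed the test. Il1b stood at 54.6% of its level in medium at 16 hours, a difference that missed the threshold but passed with the replicate number as a block in the fit. Il1rn fell to 23.4% of its 4-hour level by 16 hours with IFN-γ and to 32% in medium. Signals of Il1a and Il18 lay below the median of control probe sets for the opposite strand on all 8 arrays, so the size of any change in them is uncertain.

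Median intensity over the probe sets lay between 51.3 and 53.7 on the 8 arrays, and precision is limited by having 2 arrays a group. The median of 15 antisense control probe sets, taken as a mark of unspecific signal, lay between 44.9 and 61.2. Of 12 markers of CD8+ dendritic cells, 11 were measured, with Cd8a between 428.9 and 542.4 and Irf8 between 737.5 and 1594 on every array. The group means of Zbtb46 and Itgae were below the antisense median in all 4 groups and that of Xcr1 in 3. Markers of other cells were also present. All 8 neutrophil markers, led by S100a8 between 1217 and 1677, and all 4 measured B cell and 3 measured T cell markers stood above the antisense median in every group. For Actb, the ratio of the 3' to the 5' probe set, which is higher where RNA is less intact, was 2.04 and 2.20 in medium at 4 hours. It was 1.47 to 1.68 on the other 6 arrays. Medium at 4 hours is the reference for IFN-γ at 4 hours and for time in medium, and the part of RNA integrity in those differences was not tested.

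Because Il1b, Il1rn and Il18bp carry the changes described here, the RefSeq sequence around the start of each (GRCm38.p6, 250 bases before the start and 50 after it, 5′ to 3′ on the gene's strand) is shown, with capitals marking matches to the motifs searched. The Il1b window is chr2:129371090-129371389 on the minus strand, that of Il1rn is chr2:24336610-24336909 on the plus strand, the most upstream of its 3 RefSeq windows, and that of Il18bp is chr7:102018183-102018482 on the minus strand.
Il1b: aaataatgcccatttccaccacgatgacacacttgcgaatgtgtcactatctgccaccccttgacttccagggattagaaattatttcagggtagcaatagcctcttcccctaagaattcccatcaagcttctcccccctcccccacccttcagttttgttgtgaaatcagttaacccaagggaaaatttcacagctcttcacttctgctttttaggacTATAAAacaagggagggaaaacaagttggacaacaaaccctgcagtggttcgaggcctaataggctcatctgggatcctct
Il1rn: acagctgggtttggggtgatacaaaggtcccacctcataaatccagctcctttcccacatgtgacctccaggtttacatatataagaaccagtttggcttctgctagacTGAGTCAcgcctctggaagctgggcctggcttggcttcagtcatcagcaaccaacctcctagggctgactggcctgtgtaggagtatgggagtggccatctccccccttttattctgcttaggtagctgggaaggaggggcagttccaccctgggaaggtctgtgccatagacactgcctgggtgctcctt
Il18bp: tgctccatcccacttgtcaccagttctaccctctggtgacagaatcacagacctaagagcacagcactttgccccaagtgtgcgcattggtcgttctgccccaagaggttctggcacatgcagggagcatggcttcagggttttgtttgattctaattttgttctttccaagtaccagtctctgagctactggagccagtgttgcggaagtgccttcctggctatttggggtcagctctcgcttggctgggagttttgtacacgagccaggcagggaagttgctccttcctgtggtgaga
The following motifs were searched on both strands, namely GAS (TTCNNNGAA), ISRE (GAAA repeated after any 2 bases), EICE (GGAA and then GAAA after any 2 bases), AP-1 (TGANTCA), the TATA box (TATAAA) and the NF-κB motif. Il1b held a TATA box 31 bases before its start, a motif present in 13.6% of 32851 RefSeq windows of this length, and the printed Il1rn window held AP-1 141 bases before its start, present in 7.81%. Of the later Il1rn windows, not printed, window 2 held none of the motifs and window 3 a TATA box match 14 bases after its start. Which start of Il1rn the cells used was not tested. Il1a, not printed, held a TATA box 32 bases and AP-1 12 bases before its start. The printed Il18bp window held none of the motifs, of which GAS is present in 8.3% of all windows, ISRE in 3.44%, EICE in 2.72% and NF-κB in 4.51%. A match is only a match of letters, and none says only that these letters are not in this window.

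Il18bp read 409.9 and 548.6 with IFN-γ at 16 hours, against 227.9 and 243.7 in medium at 16 hours. At 4 hours it read 234.8 and 237.4 with IFN-γ, against 177.5 and 176.4 in medium. Both IFN-γ arrays were above both medium arrays at each time, and the 4-hour IFN-γ arrays lay within the range of medium at 16 hours. On the log2 scale the 16-hour means were 8.89 ± 0.30 with IFN-γ and 7.88 ± 0.07 in medium (SD, n = 2 each). The difference of 1.01 (SE 0.14, 95% interval 0.69 to 1.33) passed over all probe sets (adjusted p = 0.0305, or 0.00222 with the replicate number as a block, limma with Benjamini-Hochberg adjustment). It was the 20th largest rise among 12422 probe sets. Array by array of the same number, the IFN-γ signal was 1.80 and 2.25 times that in medium. The call was lost in 7 of the 15 alternatives. Without array 1 or 2 of medium at 16 hours the adjusted p was 0.205 or 0.135 by limma. It was 0.094 when either 4-hour medium array was dropped, 0.0821 when either 4-hour IFN-γ array was dropped, and 0.275 when the 4-hour arrays were all left out. The difference itself stayed between 0.80 and 1.22 over the 15 alternatives. Among 11 CD8+ dendritic cell markers 1 rose in the same comparison, Irf8, a transcription factor of this cell type (0.82, SE 0.10, adjusted p = 0.0158, limma). With the block Flt3 of the same list was lower (-0.47, adjusted p = 0.226, or 0.0386 with the block, limma). The list did not rise with Irf8, as its median difference was 0.01, with Cd8a at 0.11. At 4 hours Irf8 was also higher with IFN-γ (0.61, SE 0.10, adjusted p = 0.0612, or 0.00892 with the block, limma). The part of these markers in the Il18bp values was not tested.

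**Figure D1:**
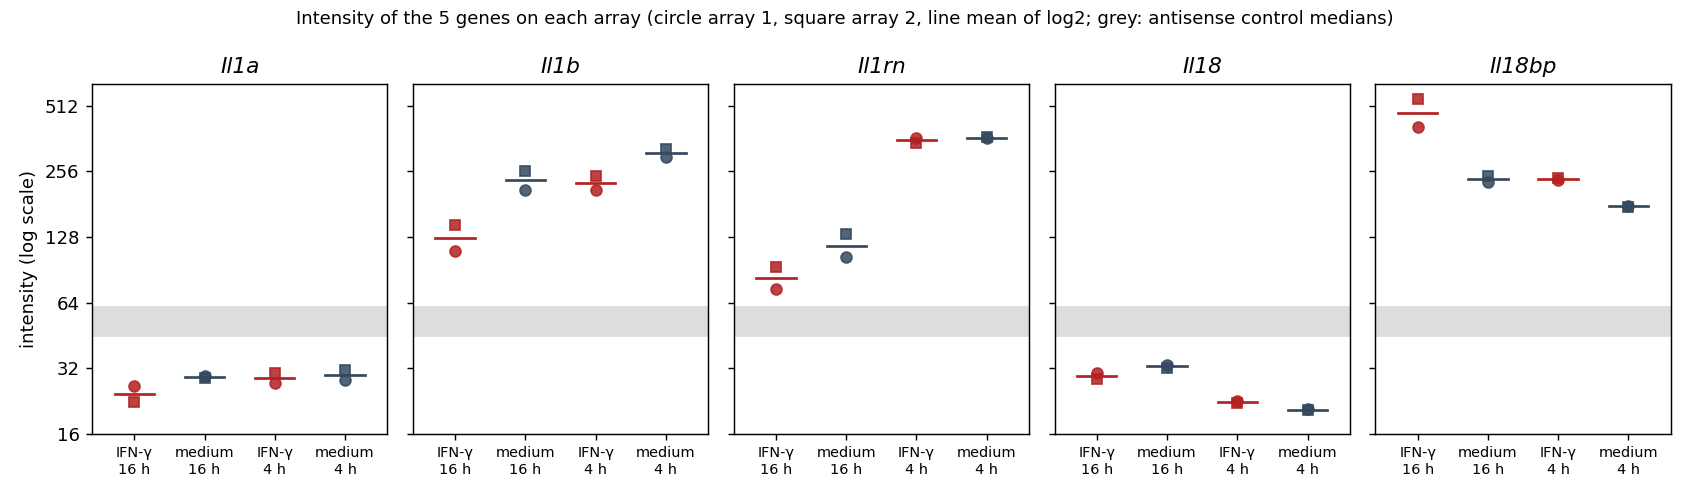
Intensity of each gene (log axis) on each array, with IFN-γ in red and medium in dark blue, array 1 as a circle, array 2 as a square and the mean of the log2 values as a line. Il18bp is highest with IFN-γ at 16 hours (409.9 and 548.6), Il1b lowest there (110.6 and 145.8), Il1rn is low in both 16-hour groups, and Il1a and Il18 lie below the grey band of antisense control medians (44.9 to 61.2).

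At 4 hours Il18bp differed between IFN-γ and medium by 0.42 (SE 0.14, adjusted p = 0.698, or 0.179 with the block, limma), with signals 1.32 and 1.35 times those in medium. The difference between its effects at 16 and 4 hours was 0.59 (SE 0.20, 95% interval 0.14 to 1.045), which did not pass (adjusted p = 0.9998, or 0.301 with the block, limma). With IFN-γ, Il18bp rose by 1.01 at 16 against 4 hours (SE 0.14, adjusted p = 0.00965, limma), a call lost when array 1 or 2 of the 4-hour IFN-γ pair was dropped (adjusted p = 0.108 or 0.101). In medium it differed by 0.41 (SE 0.14, adjusted p = 0.165, or 0.0428 with the block, limma). That value passed on quantile-normalized intensities (adjusted p = 0.0495) and when either 16-hour IFN-γ array was dropped (adjusted p = 0.0356).

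Il1b ran the other way under IFN-γ. It read 110.6 and 145.8 with IFN-γ at 16 hours, against 210.5 and 256.9 in medium at 16 hours. The 4-hour readings were 210.7 and 242.5 with IFN-γ, against 297.8 and 324.8 in medium. Both IFN-γ arrays were below both medium arrays at each time, and IFN-γ at 4 hours overlapped medium at 16 hours. Array 2 was above array 1 in all 4 groups, by 0.13 to 0.40 on the log2 scale. At 16 hours the log2 means were 6.99 ± 0.28 with IFN-γ and 7.86 ± 0.20 in medium (SD, n = 2 each), a difference of -0.87 (SE 0.16, 95% interval -1.24 to -0.51). By limma the adjusted p was 0.0998, or 0.0019 with the block. Within array numbers 1 and 2 the IFN-γ signal was 52.5% and 56.8% of that in medium. Without IFN-γ array 2 at 16 hours the difference was -1.07 and passed (adjusted p = 0.0477), and over the other alternatives the adjusted p ran up to 0.717. It was the 13th lowest difference among the 12422 probe sets.

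At 4 hours Il1b differed by -0.46 between IFN-γ and medium (SE 0.16, adjusted p = 0.757, or 0.0576 with the block, limma). The signal with IFN-γ was 70.8% and 74.7% of that in medium within array numbers 1 and 2, and this was the 36th lowest difference of all. Between the times the IFN-γ effects differed by -0.41 (SE 0.23, 95% interval -0.93 to 0.10, adjusted p = 0.9998, or 0.507 with the block, limma). With IFN-γ, Il1b fell by 0.83 on the log2 scale at 16 against 4 hours (SE 0.16, adjusted p = 0.0362, limma). That call was lost when array 1 of the 16-hour IFN-γ pair was dropped (adjusted p = 0.113), when array 1 or 2 of the 4-hour IFN-γ pair was (adjusted p = 0.16 or 0.329) and when either 4-hour medium array was (adjusted p = 0.0778). It was also lost when the fit held the IFN-γ arrays alone (adjusted p = 0.0647). In medium the difference with time was -0.42 (SE 0.16, adjusted p = 0.224, or 0.0186 with the block, limma).

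Some markers of other cells were lower with IFN-γ in the same comparisons. The summed intensity of 12 measured macrophage markers was between 3311 and 4105 with IFN-γ at 16 hours, against 4548 and 5349 in medium, and between 1319 and 1322 with IFN-γ at 4 hours, against 1760 and 1788 in medium. The brightest of them was Lyz2, the lysozyme gene of myeloid cells, at 1092.6 and 1529.8 with IFN-γ and 1938.4 and 2543.1 in medium at 16 hours. At 4 hours Lyz2 read 407.4 and 412.0 with IFN-γ, against 698.3 and 756.5 in medium. The list did not move as one, with a median log2 difference of -0.28 at 16 hours and -0.05 at 4 hours. C1qb gave 0.30 at 16 hours and 0.17 at 4 hours, C1qc 0.11 and 0.07, and Fcgr1 -0.06 and 0.42. None of the 12 passed in either comparison by limma, where 0.258% of all probe sets were called in each. With the block Lyz2, Mrc1 and Spic were lower at 16 hours and Lyz2 and Csf1r at 4 hours. Of all probe sets 0.435% were called lower with the block at 16 hours and 0.177% at 4 hours. Mrc1, Marco and Mertk were below the antisense median in all 4 groups, Spic in both 16-hour groups, and C1qb in medium at 4 hours. The summed neutrophil markers, another source of Il1b, lay between 4118 and 4968 with IFN-γ at 16 hours, against 4411 and 4643 in medium, and between 4605 and 4823 with IFN-γ at 4 hours, against 5212 and 5267 in medium. Summed over 3 measured markers of CD8- dendritic cells, the signal was 488 to 567 with IFN-γ at 16 hours, against 656 to 772 in medium, and 379 to 392 with IFN-γ at 4 hours, against 496 to 505 in medium. Their median difference was -0.55 at 16 hours and -0.15 at 4 hours, and with the block 1 was lower at each time, Itgam at 16 hours (-0.55, limma adjusted p = 0.794, and 0.0226 in the block fit) and Sirpa at 4 hours (-0.59, limma adjusted p = 0.497, and 0.0492 in the block fit). The part of other cells in the Il1b values was not tested. Fewer cells of a type and less RNA per cell cannot be told apart in bulk RNA.

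Il1rn, which encodes the IL-1 receptor antagonist, fell steeply with time. It read 73.8 and 93.4 with IFN-γ at 16 hours, against 364.5 and 345.8 with IFN-γ at 4 hours. In medium it read 103.2 and 132.3 at 16 hours, against 363.0 and 367.5 at 4 hours. All 16-hour arrays were far below all 4-hour arrays, and at 4 hours the IFN-γ and medium arrays overlapped. With IFN-γ it fell by 2.10 on the log2 scale (SE 0.15, 95% interval -2.44 to -1.75, adjusted p = 0.000343, limma), the lowest value among 12422 probe sets in that comparison. In medium it fell by 1.64 (SE 0.15, 95% interval -1.99 to -1.30, adjusted p = 0.000837, limma), the third lowest. Both falls passed in all 15 alternatives, with adjusted p up to 0.00802 with IFN-γ and 0.0198 in medium. Its 16-hour signal with IFN-γ, at 1.54 times the antisense median, was nearer that level than its 4-hour signal at 7.25 times.

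At 16 hours Il1rn was lower with IFN-γ on both arrays, at 71.5% and 70.6% of medium within array numbers 1 and 2. The log2 difference of -0.49 (SE 0.15, 95% interval -0.84 to -0.15) did not pass (adjusted p = 0.807, or 0.159 with the block, limma). At 4 hours the difference was -0.04 (SE 0.15, 95% interval -0.39 to 0.30, adjusted p = 0.9999, limma). The effects of IFN-γ at 16 and 4 hours differed by -0.45 (SE 0.22, 95% interval -0.94 to 0.04), with an adjusted p of 0.9998 by limma, and 0.637 with the block.

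The IL-18 cytokine gene itself was dim. Il18 read 30.4 and 28.5 with IFN-γ at 16 hours, against 22.7 and 22.2 with IFN-γ at 4 hours. In medium it read 33.2 and 32.2 at 16 hours, against 20.8 and 20.5 at 4 hours. Both 16-hour groups were above both 4-hour groups, yet every array was below its antisense median, at 0.40 to 0.59 times that median by group. With IFN-γ Il18 differed by 0.39 with time (SE 0.10, adjusted p = 0.1, or 0.0192 with the block, limma). In medium it rose by 0.66 (SE 0.10, 95% interval 0.43 to 0.89, adjusted p = 0.00956, limma), a call lost without array 1 or 2 of medium at 4 hours (adjusted p = 0.109 or 0.112) or array 1 of medium at 16 hours (adjusted p = 0.0706). IFN-γ against medium gave -0.15 at 16 hours (SE 0.10, adjusted p = 0.9998, limma) and 0.12 at 4 hours (SE 0.10, adjusted p = 0.9999, limma).

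Il1a stayed at 22.5 to 31.5 on all 8 arrays, below the antisense median on each. It read 26.5 and 22.5 with IFN-γ at 16 hours, against 29.6 and 28.7 in medium. At 4 hours it read 27.4 and 30.5 with IFN-γ, against 28.2 and 31.5 in medium. Only at 16 hours did the IFN-γ and medium arrays not overlap, with a difference of -0.26 (SE 0.13, 95% interval -0.54 to 0.03, adjusted p = 0.9998, limma). Whether Il1a changed cannot be read at this level.

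Counted over the 5 genes, IFN-γ against medium at 16 hours called 1 of 5, Il18bp, higher, where 0.161% of all probe sets were called higher and 0.258% in either direction, and 0 lower, where 0.0966% were. With the block, Il18bp was higher and Il1b lower, where 0.411% and 0.435% of all probe sets were called in those directions and 0.845% in either. At 4 hours 0 of 5 passed, where 0.258% of all probe sets were called, all of them higher. With the block 0 of 5 passed at 4 hours, where 1.09% were called higher, 0.177% lower and 1.26% in either direction. Without adjustment, 499 of 12422 probe sets had a limma p under 0.05 at 4 hours, Il1b and Il18bp among them. Such unadjusted values were not taken as calls. For the difference between the effects 0 of 5 passed, with 0% of all probe sets called by limma and 0.242% with the block. By limma 353 of 12422 probe sets had an unadjusted p under 0.05 for it. The median log2 difference of the 5 genes was -0.26 at 16 hours and -0.04 at 4 hours, while that of all probe sets was 0 and -0.01.

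More of the 5 genes were called with time. At 16 against 4 hours with IFN-γ 3 of 5 passed, where 2.12% of all probe sets did. Il18bp was higher, where 0.821% were called higher, and Il1b and Il1rn lower, where 1.3% were called lower. In medium 2 of 5 passed, where 4.27% of all did, Il18 higher against 1.71% and Il1rn lower against 2.57%. With the block 4 of 5 passed under IFN-γ, where 10.1% did, and 4 of 5 in medium, where 12.6% did. In each, Il18 and Il18bp were higher and Il1b and Il1rn lower, against 3.2% higher and 6.94% lower with IFN-γ and 4.52% higher and 8.09% lower in medium. Medians of the 5 genes were -0.24 with IFN-γ and -0.03 in medium, and those of all probe sets 0.05 in both. The comparisons of treatment and of time share arrays, so the values of a gene in them are not independent.

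**Figure D2:**
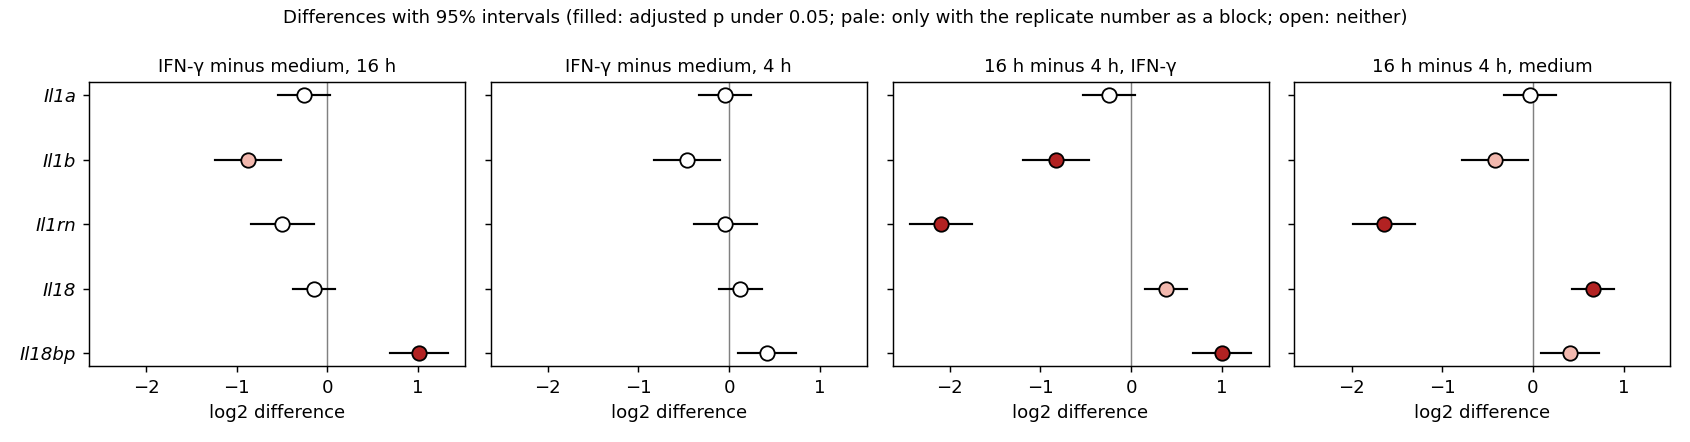
Log2 difference of each gene (point) with its 95% interval (bar) in 4 comparisons, filled where the adjusted p is under 0.05, pale where this holds only with the replicate number as a block, and open otherwise. Il18bp lies at 1.01 for IFN-γ minus medium at 16 hours and Il1b at -0.87, while Il1rn lies at -2.10 and -1.64 for 16 minus 4 hours with IFN-γ and in medium.

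The receptors of these cytokines showed no call. Of 8 listed genes 5 were measured. Il1r1, the signalling receptor for IL-1, lay between 7.9 and 9.5 and its partner Il1rap between 5.1 and 5.8, both far below the antisense controls. Il18r1 lay between 49.2 and 56.4 and Il18rap between 39.9 and 52.8, at or near that level. Il1r2, a decoy receptor for IL-1, lay above the antisense medians, between 69.8 and 107.5, and gave -0.37 at 16 against 4 hours in medium without passing (adjusted p = 0.208, limma). In all 5 comparisons 0 of 5 receptors passed by limma or with the block. Of all probe sets 0% to 4.27% were called in these comparisons by limma and 0.242% to 12.6% with the block. The median difference of the receptors was -0.03 for IFN-γ against medium at 16 hours and 0.06 at 4 hours.

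Among 8 measured of 17 listed genes for cytokine processing, 0 passed for IFN-γ against medium by limma at either time. Of all probe sets 0.258% were called at each. Casp4, the inflammatory caspase known in mice as caspase-11, read 92.4 and 120.2 with IFN-γ at 16 hours, against 57.7 and 75.2 in medium. At 4 hours it read 174.4 and 195.9 with IFN-γ, against 93.5 and 106.4 in medium. Its difference was 0.68 at 16 hours (SE 0.17, adjusted p = 0.388, or 0.00892 with the block, limma) and 0.89 at 4 hours (SE 0.17, adjusted p = 0.111, or 0.00152 with the block, limma). It fell with time under IFN-γ by 0.81 (SE 0.17, adjusted p = 0.0482, limma), where 1.3% of all probe sets were called lower. This was the only call of the list in any comparison by limma without the block. In medium Casp4 differed by -0.60 with time (adjusted p = 0.095, or 0.00322 with the block, limma). With the block 1 other gene of the list was higher with time, Txnip, by 0.36 with IFN-γ and 0.43 in medium (block adjusted p = 0.0408 and 0.0161, limma). Of all probe sets 3.2% and 4.52% were called higher there with the block. Casp1, which cuts the IL-1β and IL-18 precursors and is named for that role after its values were seen, differed by 0.44 at 16 hours and 0.46 at 4 hours between IFN-γ and medium (SE 0.24 for each) without passing, with adjusted p of 0.32 and 0.207 in the block fit by limma.

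Downstream, the 10 measured of 15 listed signalling genes gave 1 call, lower with time in medium, where 2.57% of all probe sets were called lower. Traf6, the ubiquitin ligase that links the receptor complex to NF-κB, fell by 0.64 at 16 against 4 hours in medium (SE 0.14, adjusted p = 0.0405, limma), and with IFN-γ the difference was -0.57 (limma adjusted p = 0.0837, and 0.00673 in the block fit). With the block, Traf6 was the 1 signalling gene lower with IFN-γ, where 6.94% of all probe sets were called lower. In medium 2 were lower with the block, where 8.09% of all were, the other being the kinase gene Mapk8 (-0.40, adjusted p = 0.249, or 0.019 with the block, limma). Some NF-κB subunits and targets also fell with time. Of 19 measured of 20 listed, 6 fell and 0 rose with IFN-γ, where 1.3% of all probe sets were called lower. In medium 7 fell and 0 rose, where 2.57% were called lower. The medians were -0.58 and -0.44, while the median of all probe sets was 0.05 in both. With the block 15 and 11 were lower, where 6.94% and 8.09% of all probe sets were. These counts include dim genes, such as Ptgs2 with IFN-γ (6.0 to 12.0) and Il6 in medium (25.4 to 43.2). Both lay below the antisense median on each of those arrays. Icam1, an adhesion molecule, fell by 1.11 with IFN-γ and fell by 0.93 in medium, and Cxcl2, a neutrophil chemokine, fell by 0.99 with IFN-γ and fell by 0.74 in medium. Traf1, an adaptor of TNF receptors, fell by 0.72 with IFN-γ and fell by 0.78 in medium, and Relb, a subunit of NF-κB, fell by 0.70 with IFN-γ and fell by 0.72 in medium. Nfkb2, the gene of another subunit, fell by 0.75 with IFN-γ and by 0.82 in medium. Tnfaip3, an inhibitor of NF-κB, was called only with IFN-γ (-0.69, SE 0.13, adjusted p = 0.0348, limma). In medium it gave 0.23 (adjusted p = 0.442, limma). For IFN-γ against medium 0 of 19 passed at either time by limma, where 0.258% of all probe sets were called at each. With the block 1 was higher at 4 hours, Tnfaip3 (0.69, adjusted p = 0.112, or 0.0163 with the block, limma), where 1.09% of all probe sets were.

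**Figure D3:**
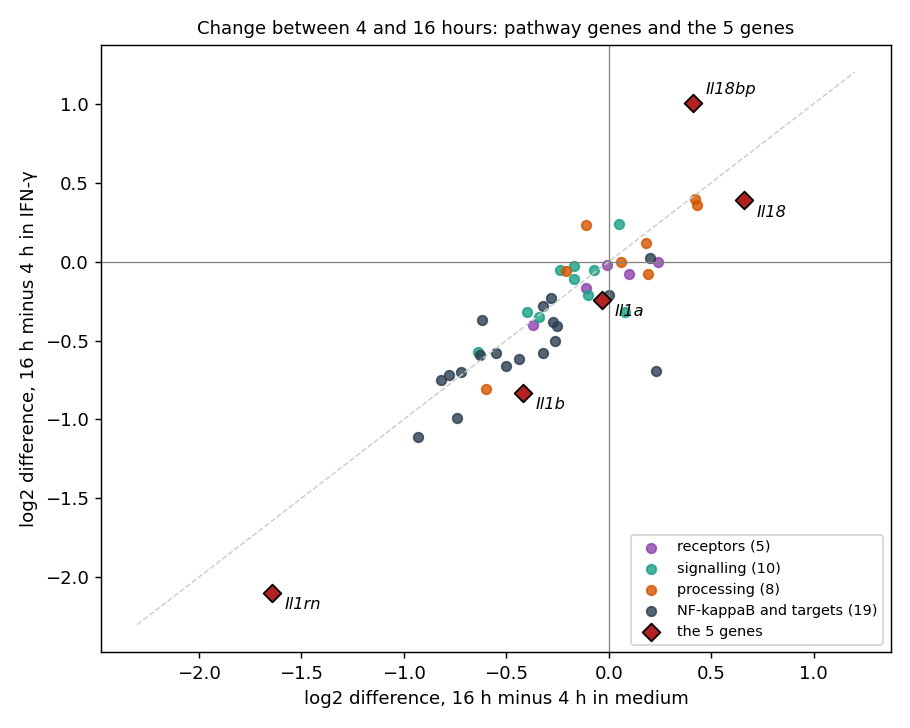
Log2 difference at 16 minus 4 hours with IFN-γ (vertical) and in medium (horizontal) for the measured receptor, signalling, processing and NF-κB genes (circles) and the 5 cytokine and antagonist genes (diamonds), with equality as a dashed line. Il1rn lies lowest on both axes (-2.10 and -1.64), Il1b lies at -0.83 and -0.42, and Il18bp is the highest on the vertical axis (1.01).

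Other cells' markers also moved with time, in the same comparisons as Il1rn, Il1b and Il18bp. Of 12 macrophage markers, 8 rose and 1 fell with IFN-γ, and 10 rose and 1 fell in medium. Of all probe sets 0.821% were called higher and 1.3% lower with IFN-γ, and 1.71% and 2.57% in medium. The rises were led by C1qb at 2.18 with IFN-γ and Fcgr1 at 2.08 in medium. C1qb was below the antisense median in medium at 4 hours. With the block 9 were higher and 1 lower with IFN-γ (3.2% and 6.94% of all probe sets), and 11 higher and 1 lower in medium (4.52% and 8.09%). Of 11 CD8+ dendritic cell markers, 1 fell with IFN-γ, Flt3 by 0.52, and 1 in medium, Irf8 by 0.47. With the block 5 were lower and 1 higher with IFN-γ, and 5 lower and 0 higher in medium. Ly75, which encodes the endocytic receptor DEC-205, gave the lowest value in both, -1.03 with IFN-γ and -0.99 in medium (SE 0.36 for each). It passed only with the block (adjusted p = 0.218 and 0.197, or 0.00438 and 0.00408 with the block, limma). Its 16-hour arrays lay far apart, at 86.0 and 191.6 with IFN-γ and 93.1 and 161.4 in medium. Their summed intensity was 3658 to 4289 with IFN-γ at 16 hours, against 4805 to 5051 with IFN-γ at 4 hours, and 3471 to 3683 in medium at 16 hours, against 4365 to 4564 in medium at 4 hours. Elsewhere, Itgam, 1 of 3 measured markers of CD8- dendritic cells, rose by 1.12 in medium (with the block 2 of 3 were higher in each condition), Ngp, 1 of 8 neutrophil markers, fell by 0.48 in medium, and Hba-a1, 1 of 2 measured erythroid markers, fell by 0.82 with IFN-γ and fell by 1.15 in medium. Itgam was below the antisense median in both 4-hour groups, so the size of its rise is uncertain. None of the 4 B cell, 3 T cell, 2 NK cell and 2 plasmacytoid dendritic cell markers measured passed with time by limma, while with the block 4 B cell and 1 plasmacytoid marker were higher with IFN-γ and 1 B cell and 1 NK cell marker in medium. For IFN-γ against medium, no listed marker other than Irf8 passed by limma, where 0.258% of all probe sets were called at each time. The part of these shifts in the changes of the 5 genes was not tested.

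Probe sets whose log2 values followed each gene over the 8 arrays were taken as a description from 1205 named probe sets of other genes whose log2 group means span at least 0.5, and the arrays share groups and times. For Il18bp the closest were Entpd1, an ectonucleotidase (r = 0.964), H2-DMa, a chaperone of MHC class II loading (r = 0.958), and Klra2, a receptor of the Ly49 family (r = 0.957). Entpd1 and Klra2 were dim, with mean log2 values of 5.42 and 4.03 at most. H2-DMa had mean log2 values of 10.35 with IFN-γ and 9.92 in medium at 16 hours, and 9.72 and 9.65 at 4 hours. For Il1b they were Anxa3, an annexin (r = 0.978), Flt3, the receptor of the growth factor given to the mice (r = 0.977), and Gsr, glutathione reductase (r = 0.969). Anxa3 had means of 6.44 with IFN-γ and 7.34 in medium at 16 hours, and 7.19 and 7.50 at 4 hours. For Il1rn they were Idi1, an enzyme of isoprenoid synthesis (r = 0.996), Gpr137b (r = 0.995) and Ptger4, a receptor for prostaglandin E2 (r = 0.988).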

How the data were processed

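The authors deposited 1 linear intensity per probe set and array, ranging from 2.65 to 12523.5 over 8 arrays. The submitters' processing notes name RMA, whose settings are not given in the sources used here. Here log2 was taken with no pseudocount or further normalization, and 66 of 12488 probe sets, the array controls, were left out. Names came from the platform annotation, checked by gene number against RefSeq (GRCm38.p6). For lists, each gene was its brightest probe set.

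Differences were tested with limma 3.58.1 in R 4.3.3 in a fit of 4 group means over all 8 arrays, two-sided, adjusted by Benjamini-Hochberg over 12422 probe sets and called at 0.05. The fit was run on simulated arrays with independent noise and no effect of the array number, so that run did not test the pairing. Between groups, the difference of array 2 and array 1 correlated with r from 0.367 to 0.740 in all 6 pairs. The main fit did not pair arrays of the same number. An alternative fit took the number as a block for this reason. No label states such a pairing. Values with the number as a block (block fit) are given for the 5 genes where they change a call, and for lists mostly as counts. Alternatives are given in the closing section.

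The members, lists and motifs were chosen with earlier results of these data known. All probe sets of the 5 genes are named, and for each gene above the antisense controls the 3 probe sets most alike. From the lists, genes that passed were picked by smallest p, at most 4 per list and comparison, and most of these are named. Their values in other comparisons are given too, and some listed genes that passed only with the block or did not pass are also named. Lists covered other family cytokines (0 of 7 measured), receptors, signalling, processing, NF-κB, and markers of 9 cell types.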

Additional observations from a re-analysis of the deposited data

Results flagged for a closer look

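Il18 was below medium on both IFN-γ arrays at 16 hours and above it on both at 4 hours. The effects differed by -0.27 on the log2 scale (16 minus 4 hours, SE 0.15, 95% interval -0.60 to 0.05), which did not pass (adjusted p = 0.9998, or 0.803 with the replicate number as a block, limma). All 8 values lay below the antisense control median.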

How the results depend on the processing

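For IFN-γ against medium at 16 hours the number of the 5 genes called was 1, but 0 in a fit of only the 4 arrays compared, 2 with the replicate block, and 0 to 2 when 1 array was left out. For 16 against 4 hours with IFN-γ it was 3, but 4 with the replicate block and 2 in a fit of only the 4 arrays compared. It was also lower in some fits with 1 array left out. For 16 against 4 hours in medium it was 2, but 4 with the replicate block, 1 without the dimmest 40% of probe sets, which removes Il18 and Il1a from the test, and 1 to 3 when 1 array was left out. At 4 hours and for the difference of effects it was 0 in every alternative. Il1a turned its sign where it was near 0. For IFN-γ against medium at 4 hours it ran over -0.13 to 0.03 when 1 array was left out, above 0 without array 1 of IFN-γ or array 2 of medium at 4 hours. For time in medium it ran over -0.11 to 0.05, above 0 without array 2 of medium at 4 hours. No other sign turned. Alternatives were quantile normalization, median centring (which moved no array by over 0.0385), the dim filter, a trended and robust prior, the 4 arrays compared, the block, each array left out (its lone partner assumed to vary like the other groups) and 1 mean per gene. The block changed the calls of Il1b, Il18 and Il18bp named in the text and no other call of the 5 genes. Over all probe sets the block gave 105 calls for IFN-γ at 16 hours, against 32 without it, 157 at 4 hours, against 32, 30 for the difference of effects, against 0, 1259 with time under IFN-γ, against 263, and 1567 in medium, against 531. A fit of only the 4 arrays compared gave 7 at 16 hours, 93 at 4 hours and 120 with time under IFN-γ. Leaving out 1 array gave 10 to 38 at 16 hours, 8 to 67 at 4 hours, 27 to 708 with time under IFN-γ and 73 to 923 in medium. Signals at or below the antisense controls limit Il1a, Il18, Il1r1, Il1rap and, at 16 hours, Cxcl2.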
